A study of Homo sapiens with 12 samples.

Results

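The 53 genes described here serve the epithelial-mesenchymal transition (EMT), cell adhesion, the extracellular matrix, actin contraction and TGF-beta signaling. They were taken by symbol from the 12 gene tables of the series, out of 28278 symbols in 8 tables and 25045 in the other 4, and all were found. Although earlier results of these data were known, no rule on measured values was used to choose the genes. They fall into 6 EMT factors and vimentin, 4 cell adhesion genes, 8 integrins, 18 matrix proteins and enzymes, 5 actin-contractile genes, 7 TGF-beta ligands, receptors and SMADs, and 5 TGF-beta inhibitors.

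Transcription was measured by precision run-on sequencing (PRO-seq), which maps the RNA that engaged RNA polymerase extends in isolated nuclei, in Mia PaCa-2, an established human pancreatic carcinoma cell line. Stable lines carried doxycycline (Dox)-inducible MED30, a subunit of the Mediator complex, MYC with a 3xHA tag, or both, in an all-in-one Tet vector. By the labels, each of the 3 lines was measured without Dox (control) and after 0.5 µg/ml Dox for 1 day (overexpression, OE). Each of the 6 groups held 2 libraries. The controls carry the same integrated constructs as their OE libraries, and no line without a construct was used here. Whether the 2 libraries of a group came from separate cultures, and whether a line is 1 clone, was not stated, and the p-values then reflect only how the libraries of a group vary. In such bulk libraries, fewer cells that transcribe a gene and less transcription per cell cannot be told apart.

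EMT is the program by which epithelial cells loosen their junctions and take on a migratory, matrix-producing state. TGF-beta is a classic inducer of it: the ligand is freed from latent complexes, binds a pair of receptor kinases and signals through SMAD2 and SMAD3 to the nucleus, and SMAD6, SMAD7, SKI, SKIL and TGIF1 hold the response back. SNAI and ZEB factors repress E-cadherin and its partners, integrins couple the matrix to the actin skeleton, and laminins, collagens and fibronectin form the matrix they bind. In pancreatic carcinoma this program is known for its link with invasion and with a dense matrix around the tumor.

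The promoters of members that moved in the results below are shown so that their letters can be read beside the values. CD44, VIM, ITGB1, ITGA6 and TGFBI fell in all 3 comparisons. COL5A1 rose in 2 of them, which are not treated as separate experiments below. COL4A1 and COL4A2 are transcribed away from each other out of a shared region. Each sequence runs 5′ to 3′ and holds the 250 bases before the annotated start, or, for the COL4A1 and COL4A2 pair, the 126 bases between both starts, from RefSeq (GRCh38.p14). Capitals mark matches to 5 motifs searched on both strands: CACGTG (the E-box of MYC-MAX), CACCTG (the E-box of ZEB and SNAI factors), CAGACA (SMAD), GGAATG (TEAD) and TGANTCA (AP-1).
CD44 (chr11:35138921-35139170, plus strand): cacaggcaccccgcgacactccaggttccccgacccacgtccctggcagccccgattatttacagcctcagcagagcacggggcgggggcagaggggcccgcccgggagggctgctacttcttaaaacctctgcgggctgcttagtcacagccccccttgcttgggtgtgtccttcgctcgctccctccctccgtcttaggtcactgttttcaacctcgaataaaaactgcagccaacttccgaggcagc
VIM (chr10:17227991-17228240, plus strand): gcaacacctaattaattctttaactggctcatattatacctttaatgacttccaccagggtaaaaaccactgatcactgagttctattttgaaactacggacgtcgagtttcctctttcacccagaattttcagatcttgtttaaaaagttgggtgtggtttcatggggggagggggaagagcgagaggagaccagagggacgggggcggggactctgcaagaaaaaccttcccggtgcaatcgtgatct
ITGB1 (chr10:32958231-32958480, minus strand): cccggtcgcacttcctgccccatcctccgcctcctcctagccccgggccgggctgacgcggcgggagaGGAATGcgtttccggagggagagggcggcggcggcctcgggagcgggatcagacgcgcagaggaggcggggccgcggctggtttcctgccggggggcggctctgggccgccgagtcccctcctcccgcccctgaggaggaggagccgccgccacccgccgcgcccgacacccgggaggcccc
ITGA6 (chr2:172427086-172427335, plus strand): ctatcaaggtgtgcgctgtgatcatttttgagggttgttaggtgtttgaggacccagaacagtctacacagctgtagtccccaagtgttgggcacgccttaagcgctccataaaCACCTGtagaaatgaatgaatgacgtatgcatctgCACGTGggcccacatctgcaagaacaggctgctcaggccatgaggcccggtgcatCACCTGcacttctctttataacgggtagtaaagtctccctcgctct
TGFBI (chr5:136028738-136028987, plus strand): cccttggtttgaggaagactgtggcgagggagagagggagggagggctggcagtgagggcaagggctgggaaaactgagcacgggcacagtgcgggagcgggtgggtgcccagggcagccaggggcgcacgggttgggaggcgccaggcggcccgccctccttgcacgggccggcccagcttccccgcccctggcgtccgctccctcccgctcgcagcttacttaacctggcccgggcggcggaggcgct
COL5A1 (chr9:134641553-134641802, plus strand): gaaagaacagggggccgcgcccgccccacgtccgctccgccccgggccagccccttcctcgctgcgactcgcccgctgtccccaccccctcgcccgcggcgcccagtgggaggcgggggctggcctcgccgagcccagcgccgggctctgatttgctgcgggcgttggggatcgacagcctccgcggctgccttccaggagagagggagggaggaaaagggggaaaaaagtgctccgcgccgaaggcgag
COL4A1 and COL4A2 (chr13:110307158-110307283, plus strand): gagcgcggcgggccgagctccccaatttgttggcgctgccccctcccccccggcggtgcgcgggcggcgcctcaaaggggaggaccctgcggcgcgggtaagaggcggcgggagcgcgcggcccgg

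Among the sequences printed, ITGA6 held CACGTG once and CACCTG at 2 places, and ITGB1 held GGAATG once. The others held none of these letters, which says nothing of the factors. RefSeq promoters of 300 bases (250 before and 50 after the start) were found for 41 of the 53 members. In brackets, the share of these 41 is set against the number and share of all promoters in the table. CACGTG lay in 3 (7.32% against 2030 of 27305, 7.43%), namely ITGA6, TGFB2 and SMAD3. CACCTG lay in 6 (14.6% against 5625 of 27305, 20.6%), CAGACA in 6 (14.6% against 4595 of 27305, 16.8%), GGAATG in 7 (17.1% against 3836 of 27305, 14.1%) and TGANTCA in 2 (4.88% against 2120 of 27305, 7.76%).

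Levels below are in CPM, the reads of a gene per 1e6 reads of its library after scaling by the trimmed mean of M-values (TMM), so that each is relative to the other genes of its library. A gene is called where its adjusted p (Benjamini-Hochberg over all genes tested) is under 0.05, by the edgeR quasi-likelihood test for raw counts and by limma for the MED30-labelled tables, whose values were scaled and rounded before deposit. Raw totals ran from 20616713 to 29881914 counts, except for 1257499 in MYC&MED30 control 2, and the MED30-labelled totals from 6379143 to 6519353. MED30 rose in MYC&MED30 from 53.6 and 58.1 to 1482 and 1525 CPM, and MYC from 279 and 299.96 to 659 and 623 CPM. In the libraries that carry the label MYC, it was MED30 that rose, from 32.9 and 32.1 to 815 and 620.1 CPM, while MYC fell from 398 and 387 to 269 and 261 CPM. These libraries went against their label and are called MYC-labelled below. In the MED30-labelled ones MED30 rose from 29 and 27.3 to 626 and 609, and MYC fell from 417 and 403 to 279.7 and 275, on the same scale. Across 5806 genes, the log2 ratio of replicate 1 to replicate 2 correlated between MYC-labelled and MED30-labelled tables at r = 0.913 for the controls and 0.93 for the OE libraries, and between -0.30 and 0.25 for the other pairs of groups. The log2 Dox responses of these 2 sets correlated at r = 0.985. The 2 sets may come from the same libraries, which was not tested. They are therefore given side by side and not as separate experiments, and a result found in both is not counted as a repeat.

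Markers of cell types were also read. The keratins KRT8 and KRT18 were present in every library, whereas EPCAM was at or under 0.915 CPM and KRT7 at or under 2.77 CPM. In MYC&MED30, the MYC-labelled and the MED30-labelled set, KRT8 was called lower (-0.47, -0.42 and -0.41, adjusted p = 0.0014 and 0.00132 by edgeR and 0.00502 by limma). KRT18 was also called lower in each (-0.53, -0.57 and -0.54, adjusted p = 0.00109, 0.000112 and 0.00123 by the same tests). KRT19, KRT7 and EPCAM were not called where tested. The summed level of KRT8, KRT18, KRT19, KRT7 and EPCAM was 408 and 385 against 289 and 282 CPM (controls against OE) in MYC&MED30, 379.6 and 366 against 275 and 264 in the MYC-labelled and 388 and 364 against 277 and 265 in the MED30-labelled set. Of the fibroblast markers, COL1A2 and COL3A1 carried nearly all of the sum, while DCN and LUM were at or near 0. That sum was 248 and 232 against 196 and 199 CPM in MYC&MED30, 211 and 218 against 233 and 189 in the MYC-labelled and 231 and 235 against 257 and 219 in the MED30-labelled set. COL1A2 and COL3A1 were called in no set, COL1A2 with -0.32 ± 0.10 in MYC&MED30 (edgeR adjusted p = 0.0571). COL1A1, a low gene of the same list, was called higher in the MYC-labelled (0.971 and 0.875 against 1.91 and 2.49 CPM, 1.26 ± 0.38, adjusted p = 0.0281) and MED30-labelled sets (0.976 and 0.969 against 2.12 and 2.79, 1.20 ± 0.27, limma adjusted p = 0.0175). Among leukocyte markers CD68 was at 30.04 to 45.8 CPM, with PTPRC and CD3E near 0, and their sum was 30.3 to 46.5 CPM. The endothelial sum was 10.6 and 8.82 against 6.27 and 6.87 CPM in MYC&MED30, where CDH5 was called lower (5.84 and 5.15 against 2.95 and 2.90 CPM, -0.97 ± 0.27, adjusted p = 0.0281), 11.7 and 11.4 against 11.2 and 14.7 in the MYC-labelled and 8.62 and 8.39 against 9.37 and 11.2 in the MED30-labelled set. The part of these markers in the results was not tested.

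In MYC&MED30, 45 of the 53 members passed the filter on low counts. Of these, 8 (17.8%) were called, against 6.74% of all 19318 genes tested. They were 1 higher with Dox (background 3.65%) and 7 lower (3.09%). In the MYC-labelled set 26.7% of the same 45 were called against 13% of all genes, 3 of them higher (5.32%) and 9 lower (7.71%). In the MED30-labelled set 40 members passed and 32.5% were called against 16% of 14771 genes, 5 higher (7.37%) and 8 lower (8.63%). The median log2 fold change of the members tested was -0.0039, -0.036 and -0.0068, and that of all genes tested 0.018, 0.0098 and 0.014. Both OE libraries lay below both controls for 11, 17 and 13 members tested, against 17.1%, 29.1% and 29.2% of all genes, and above them for 11, 11 and 12, against 26.8%, 26.8% and 31.9%. Across the sets, 18 members were called at least once, 6 were lower in all 3 and 35 were called in none. By DESeq2, 1 of these 6 (ITGA6) was called in neither raw set. How many of all genes were called in such combinations was not counted, so these numbers cannot be set against a background. The MYC-labelled and MED30-labelled sets are also not separate experiments.

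**Figure D1:**
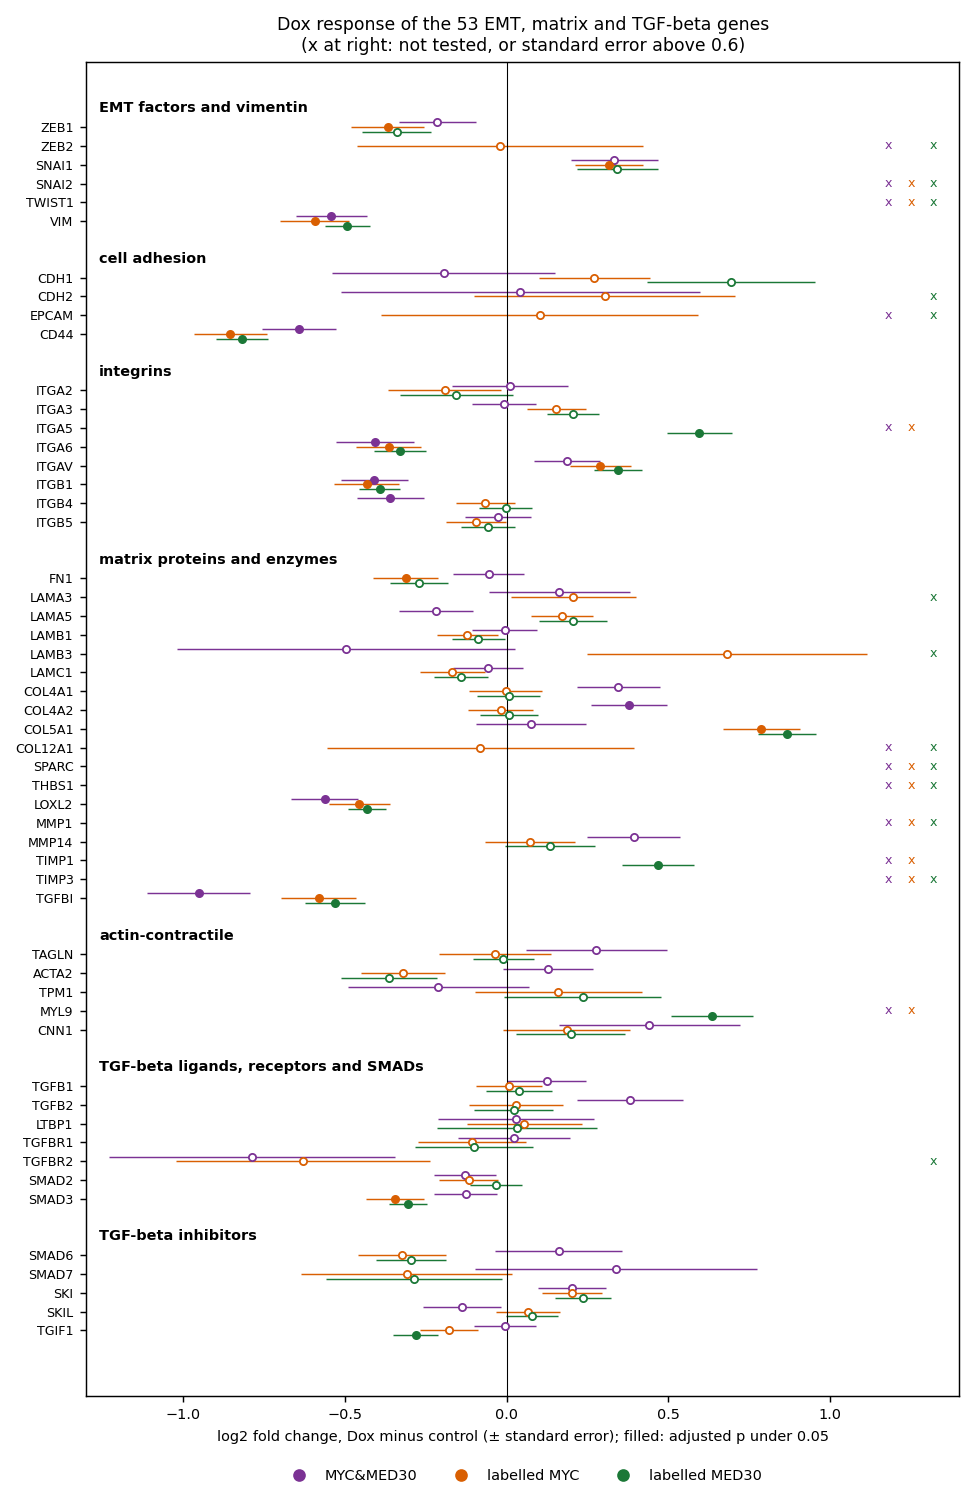
Log2 fold change with Dox for the 53 members by class, with the standard error as bars; colors give the 3 sets of libraries, filled points the calls at an adjusted p under 0.05, and x a gene that was not tested or whose standard error was above 0.6. CD44, VIM, ITGA6, ITGB1, LOXL2 and TGFBI lie left of 0 as filled points in all 3 sets, and COL5A1 lies right of 0 as a filled point in the MYC-labelled and MED30-labelled sets.

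CD44, the hyaluronan receptor and a mesenchymal and stem-cell surface marker, fell in each set. It was 2341 and 2017 against 1392 and 1409 CPM in MYC&MED30, controls first. It was 3640.1 and 3689 against 2252 and 1800.2 CPM in the MYC-labelled and 4053 and 4072 against 2514 and 2110.4 on the same scale in the MED30-labelled set. Every OE library lay below both of its controls. The log2 fold change was -0.64 ± 0.11 (SE, n = 2 and 2; edgeR adjusted p = 0.000403) in MYC&MED30, -0.85 ± 0.11 (adjusted p = 3.19e-06) in the MYC-labelled and -0.82 ± 0.08 (limma adjusted p = 0.000351) in the MED30-labelled set. CD44-AS1 lies opposite 5.78% of the gene (chr11:35139171-35232402, plus strand).

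VIM encodes vimentin, the intermediate filament of mesenchymal cells and a much used EMT marker. Its level was 744 and 693 against 477 and 513 CPM in MYC&MED30. In the MYC-labelled set it was 1084 and 1113 against 818 and 639 CPM and in the MED30-labelled one 1378 and 1383 against 1044 and 923, again without overlap of controls and OE libraries. VIM fell by 0.54 ± 0.11, 0.59 ± 0.11 and 0.49 ± 0.068 on the log2 scale (adjusted p = 0.0017 and 0.000256 by edgeR and 0.002 by limma). VIM-AS1 lies opposite 18.7% of the gene (chr10:17228241-17237593, plus strand).

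By the main fits, ZEB1, a repressor of E-cadherin, was called in the MYC-labelled set alone, where it was 226 and 236 against 210.2 and 148 CPM (-0.37 ± 0.11, edgeR adjusted p = 0.0304). This fall rested on OE replicate 2, without which the change was -0.11 (adjusted p = 0.548). DESeq2 did not call it there (-0.35, adjusted p = 0.233), nor did edgeR on the 4 libraries of that line alone (adjusted p = 0.127). In MYC&MED30 ZEB1 was 296 and 249.97 against 239 and 239.9 CPM (-0.21 ± 0.12, adjusted p = 0.341), and in the MED30-labelled set 298 and 309.8 against 274 and 210.4 (-0.34 ± 0.11, limma adjusted p = 0.06). With edgeR on the 4 libraries of the MYC&MED30 line alone, ZEB1 was called lower. In each set both OE libraries lay below both controls. SNAI1, the repressor Snail, rose in the MYC-labelled set, at 55.1 and 54.7 against 59.4 and 77.2 CPM (0.32 ± 0.11, adjusted p = 0.0438), and without OE replicate 2 the change was 0.14 (adjusted p = 0.511). It too was not called by DESeq2 (0.33, adjusted p = 0.107) or with the 4 libraries alone (adjusted p = 0.0815). Its values were 23 and 22.1 against 30.4 and 27.3 CPM in MYC&MED30 (0.33 ± 0.13, adjusted p = 0.149) and 61.2 and 60.4 against 66 and 90.02 in the MED30-labelled set (0.34 ± 0.13, limma adjusted p = 0.0981). ZEB2, at or under 1.27 CPM, was not called where it was tested, and SNAI2 and TWIST1, at or under 0.163 CPM, were too low for a test. With VIM included, 25% of 4, 75% of 4 and 33.3% of 3 tested were called in MYC&MED30, the MYC-labelled and the MED30-labelled set. The shares of all genes were 6.74%, 13% and 16%, and no test of the class was made.

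Among the adhesion genes, CDH1, the E-cadherin of epithelial junctions, was not called. It was 1.92 and 2.21 against 1.36 and 1.97 CPM in MYC&MED30, 20.4 and 15.2 against 16.9 and 25.9 CPM in the MYC-labelled and 1.14 and 1.13 against 2.12 and 1.76 in the MED30-labelled set. The groups overlapped in the first pair of sets, and the OE libraries lay above the controls in the last. The log2 fold changes were -0.19 ± 0.35, 0.27 ± 0.17 and 0.69 ± 0.26 (adjusted p = 0.831 and 0.343 by edgeR and 0.103 by limma). The control level of CDH1 in the MYC-labelled tables was 15.1 times that in the MED30-labelled ones, against a median ratio of 0.892 over 11226 genes. The raw MYC&MED30 controls, given above, lay near the MED30-labelled ones, and the cause of the ratio was not tested. CDH2 (N-cadherin) lay between 0.147 and 1.47 CPM and EPCAM between 0 and 0.915 CPM, and neither was called where tested. CD44 was thus the lone call of this class, 25% of 4, 25% of 4 and 50% of 2 tested in MYC&MED30, the MYC-labelled and the MED30-labelled set. The shares of all genes were 6.74%, 13% and 16%, and no test of the class was made.

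**Figure D2:**
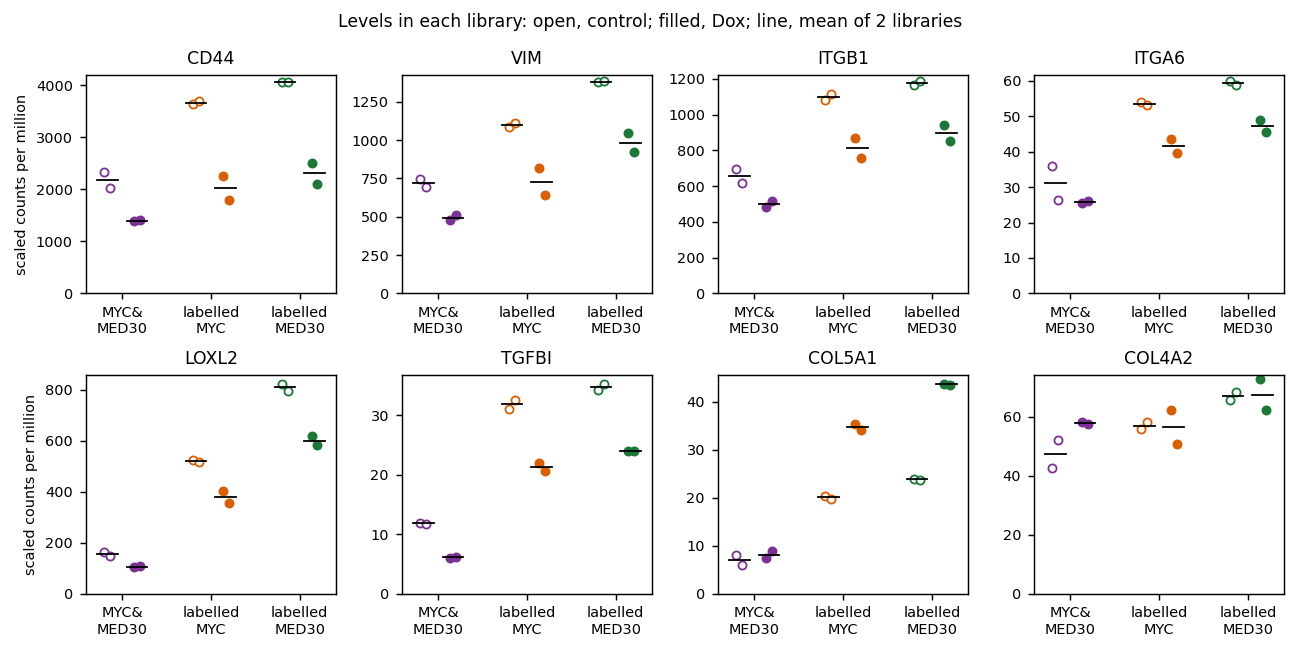
Levels (scaled CPM) of 8 members in each of the 12 libraries, open for controls and filled for OE libraries, with a line at the mean of 2; each panel starts at 0. CD44, VIM, ITGB1, ITGA6, LOXL2 and TGFBI lie lower with Dox in all 3 sets, COL5A1 higher in the MYC-labelled and MED30-labelled sets, and COL4A2 higher in MYC&MED30.

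Of the 8 integrins, ITGB1 and ITGA6 fell in all 3 sets and ITGB4 in MYC&MED30. In MYC&MED30, the MYC-labelled and the MED30-labelled set, 42.9% of 7, 42.9% of 7 and 50% of 8 integrins tested were called. The shares of all genes were 6.74%, 13% and 16%, and no test of the class was made. ITGB1, the beta subunit that many matrix-binding integrins share, was 696 and 619.8 against 480.4 and 516 CPM in MYC&MED30. It was 1079.8 and 1115 against 869.6 and 757 CPM in the MYC-labelled and 1166 and 1188 against 939.9 and 855 in the MED30-labelled set. The groups did not overlap, and the log2 fold changes were -0.41 ± 0.10, -0.43 ± 0.10 and -0.39 ± 0.063 (adjusted p = 0.0125 and 0.00385 by edgeR and 0.00423 by limma). ITGA6, a laminin-binding alpha subunit, was 36 and 26.5 against 25.6 and 26.2 CPM in MYC&MED30, where the shallow control 2 lay close to the OE libraries. It was 54 and 53.1 against 43.6 and 39.6 CPM in the MYC-labelled and 60.04 and 58.8 against 49 and 45.5 in the MED30-labelled set. ITGA6 fell by 0.41 ± 0.12, 0.36 ± 0.10 and 0.33 ± 0.081 on the log2 scale (adjusted p = 0.0349, 0.0142 and 0.0258). DESeq2 called it in neither MYC&MED30 (-0.40, adjusted p = 0.099) nor the MYC-labelled set (-0.35, adjusted p = 0.056). ITGA6-AS1 and PDK1-AS1 lie opposite 53.3% of its span.

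ITGB4, the partner of ITGA6 in hemidesmosomes, was 87.5 and 72.8 against 63.9 and 66.6 CPM in MYC&MED30 (-0.36 ± 0.10, edgeR adjusted p = 0.0294). Its groups overlapped in the MYC-labelled set, at 116 and 118 against 106 and 117 CPM (-0.066 ± 0.091, adjusted p = 0.718), and in the MED30-labelled one, at 126 and 126 against 116 and 136. Its response in MYC&MED30 minus that in the MYC-labelled set was -0.29 ± 0.14 (adjusted p = 0.375), so that a difference was not shown. ITGAV, the alpha subunit of vitronectin receptors, some of which free latent TGF-beta, rose in the MYC-labelled set (60.4 and 60.4 against 78.2 and 69.6 CPM, 0.29 ± 0.10, adjusted p = 0.0415) and in the MED30-labelled one (64.9 and 64.7 against 85.2 and 79.6, 0.34 ± 0.074, limma adjusted p = 0.0152). In MYC&MED30 it was 98.5 and 79.4 against 104 and 108 CPM (0.19 ± 0.10, adjusted p = 0.338). ITGA2, ITGA3 and ITGB5 had log2 fold changes of -0.19 to 0.20 and no call.

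The matrix genes moved in both directions. In MYC&MED30, the MYC-labelled and the MED30-labelled set, 21.4% of 14, 28.6% of 14 and 36.4% of 11 tested were called. The shares of all genes were 6.74%, 13% and 16%, and no test of the class was made. LOXL2, a lysyl oxidase that cross-links collagen, was 162 and 147 against 104 and 109 CPM in MYC&MED30, 524 and 518 against 404 and 356 CPM in the MYC-labelled and 823 and 796 against 618 and 583 in the MED30-labelled set. It fell without overlap by 0.56 ± 0.10, 0.46 ± 0.094 and 0.43 ± 0.059 on the log2 scale (adjusted p = 0.00059 and 0.00112 by edgeR and 0.00187 by limma), and LOXL2-AS1 lies opposite 27.9% of its span. TGFBI, a secreted matrix protein named for its induction by TGF-beta, had the largest fall of any member in MYC&MED30, from 11.9 and 11.8 to 6.04 and 6.23 CPM. It went from 31.1 and 32.6 to 22 and 20.6 CPM in the MYC-labelled and from 34.3 and 35.4 to 24 and 24.1 in the MED30-labelled set. The log2 fold changes were -0.95 ± 0.16, -0.58 ± 0.12 and -0.53 ± 0.094 (adjusted p = 0.00019, 0.000793 and 0.00633). TGFBI (chr5:136028988-136063818, plus strand) has no annotated gene opposite it.

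COL5A1, the alpha 1 chain of the fibril-regulating collagen V, had the largest rise among the members called. It was 20.3 and 19.8 against 35.2 and 34.1 CPM in the MYC-labelled and 23.9 and 23.7 against 43.7 and 43.5 in the MED30-labelled set. In MYC&MED30 it was 7.99 and 5.88 against 7.35 and 8.95 CPM, with overlap. The log2 fold changes were 0.79 ± 0.12 (edgeR adjusted p = 2.8e-05), 0.87 ± 0.09 (limma adjusted p = 0.000452) and 0.076 ± 0.17 (edgeR adjusted p = 0.874). The response in MYC&MED30 minus that in the MYC-labelled set was -0.71 ± 0.21 (adjusted p = 0.0969) and did not pass. It passed without MYC-labelled OE replicate 2 (-0.77, adjusted p = 0.0413), and without MYC&MED30 control 1 it was -0.29 (adjusted p = 0.847).

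COL4A1 and COL4A2 encode chains of the basement membrane collagen IV, from start sites on either side of the region printed above. In MYC&MED30 COL4A2 rose from 42.7 and 52.2 to 58.2 and 57.6 CPM (0.38 ± 0.12, edgeR adjusted p = 0.0499), and COL4A1 was 27.4 and 18.4 against 32.3 and 33.5 CPM (0.34 ± 0.13, adjusted p = 0.11). The OE libraries lay above the controls for both genes. In the MYC-labelled set COL4A2 was 55.9 and 58.1 against 62.1 and 50.6 CPM (-0.019 ± 0.10, adjusted p = 0.941) and in the MED30-labelled one 65.6 and 68.4 against 72.7 and 62.3 (0.006 ± 0.09), with overlap in both, as for COL4A1 (-0.0029 ± 0.11 and 0.0061 ± 0.10). For COL4A2 the response in MYC&MED30 minus the MYC-labelled one was 0.40 ± 0.16 (adjusted p = 0.264).

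FN1, fibronectin, fell in the MYC-labelled set, at 50.5 and 50.6 against 44 and 37.6 CPM (-0.31 ± 0.10, edgeR adjusted p = 0.0375), and without OE replicate 2 the change was -0.18 (adjusted p = 0.321). DESeq2 did not call it (-0.30, adjusted p = 0.0884), nor did edgeR on the 4 libraries alone (adjusted p = 0.0758). It was 70.3 and 56.6 against 62.9 and 66.2 CPM in MYC&MED30 (-0.055 ± 0.11, adjusted p = 0.855) and 54.8 and 54.6 against 48.2 and 42.6 in the MED30-labelled set (-0.27 ± 0.088, limma adjusted p = 0.0684). The laminin chains LAMA3, LAMA5, LAMB1, LAMB3 and LAMC1 were not called, with log2 fold changes of -0.50 to 0.68; both ends of this range were those of LAMB3, at or under 1.99 CPM. MMP14, a membrane-bound collagenase, was 19.2 and 21.3 against 26.7 and 24.6 CPM in MYC&MED30 (0.39 ± 0.15, adjusted p = 0.107) and had 0.072 ± 0.14 and 0.13 ± 0.14 in the other sets. COL12A1 and THBS1 lay at or under 0.931 CPM with no call where tested, and SPARC at or under 0.323 CPM without a test.

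The actin-contractile genes, which mark myofibroblast-like cells, had 0 calls by edgeR among the 4 tested in MYC&MED30 and in the MYC-labelled set. Of all genes 6.74% and 13% were called there, and with so few members 0 calls do not set the class apart. In these sets 0 and 1 had an unadjusted p under 0.05, and DESeq2 called 0 in both. In the MED30-labelled set 1 of 5 was called (MYL9, given below), which is 20% against 16% of all genes. ACTA2, smooth muscle actin, was 41.1 and 22.8 against 40.03 and 42 CPM in MYC&MED30 (0.13 ± 0.14, edgeR adjusted p = 0.691). It was 24.6 and 25.2 against 22.2 and 17.8 CPM in the MYC-labelled set (-0.32 ± 0.13, adjusted p = 0.108) and 23.4 and 23.6 against 21.3 and 15.6 in the MED30-labelled one (-0.36 ± 0.15, limma adjusted p = 0.127). Its groups overlapped only in MYC&MED30, through control 1, and the difference of responses was 0.45 ± 0.19 (adjusted p = 0.314). ACTA2-AS1 and FAS lie opposite 57.2% of ACTA2. CNN1, calponin, was 3.25 and 4.41 against 5.95 and 3.33 CPM in MYC&MED30, 9.55 and 9.49 against 9.73 and 11.9 CPM in the MYC-labelled and 10.1 and 9.85 against 9.82 and 13.4 in the MED30-labelled set. Its groups overlapped in the first and last, and none of its changes (0.44 ± 0.28, 0.19 ± 0.20 and 0.20 ± 0.17) was called. TAGLN and TPM1 had log2 fold changes of -0.21 to 0.28 and no call.

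Among the 7 TGF-beta ligands, receptors and SMADs, edgeR called 0 in MYC&MED30, against 6.74% of all genes. With so few members, 0 calls do not set the class apart. In that set 1 (TGFB2) had an unadjusted p under 0.05 and DESeq2 called 0. SMAD3, a SMAD that carries the TGF-beta signal to DNA, fell in the MYC-labelled set, at 379 and 364 against 305 and 279.97 CPM (-0.35 ± 0.09, edgeR adjusted p = 0.00914), and in the MED30-labelled one, at 420.1 and 402 against 340.2 and 325 (-0.30 ± 0.06, limma adjusted p = 0.0101). In MYC&MED30 it was 163 and 157 against 145 and 149.5 CPM (-0.13 ± 0.10, adjusted p = 0.531), also without overlap, and the difference of responses was 0.22 ± 0.13 (adjusted p = 0.526). TGFBR2, the type II receptor, was 1.96 and 2.21 against 1.36 and 0.967 CPM in MYC&MED30 and 1.54 and 1.57 against 0.678 and 1.29 CPM in the MYC-labelled set. These low values gave log2 fold changes of -0.79 ± 0.44 and -0.63 ± 0.39 (adjusted p = 0.349 and 0.335). The ligand TGFB2 was 22.4 and 8.82 against 25.4 and 27.5 CPM in MYC&MED30 (0.38 ± 0.16, adjusted p = 0.18). TGFB1, TGFBR1, SMAD2 and LTBP1, which binds the latent ligand, had log2 fold changes of -0.13 to 0.12 and no call.

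Among the 5 inhibitors, edgeR called 0 in MYC&MED30 and 0 in the MYC-labelled set, against 6.74% and 13% of all genes. With so few members, 0 calls do not set the class apart. In these sets 0 and 2 (SKI and SMAD6) had an unadjusted p under 0.05, and DESeq2 called 0 in both. SMAD6, an inhibitory SMAD, was 20.8 and 20.9 against 17.4 and 16 CPM in the MYC-labelled set (-0.32 ± 0.14, edgeR adjusted p = 0.125), 22.6 and 22.4 against 18.7 and 17.9 in the MED30-labelled one (-0.30 ± 0.11, limma adjusted p = 0.0919) and 5.52 and 8.82 against 6.37 and 6.69 CPM in MYC&MED30 (0.16 ± 0.20, adjusted p = 0.73). SKI, a corepressor of SMADs, was 199.7 and 189.6 against 208 and 239 CPM in the MYC-labelled set (0.20 ± 0.094, adjusted p = 0.168), 111 and 99.99 against 118 and 129.995 CPM in MYC&MED30 (0.20 ± 0.10, adjusted p = 0.295) and 218 and 207 against 228 and 274 in the MED30-labelled set (0.24 ± 0.087, adjusted p = 0.0965). The OE libraries of SKI lay above the controls in each. TGIF1, another corepressor, fell in the MED30-labelled set, at 149 and 136 against 118 and 116 (-0.28 ± 0.07, limma adjusted p = 0.0272), and was 258 and 246 against 223 and 222 CPM in the MYC-labelled set (-0.18 ± 0.09, adjusted p = 0.214). SMAD7 and SKIL were not called, with log2 fold changes of -0.31 to 0.34.

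For the response in MYC&MED30 minus the MYC-labelled response, edgeR called 0 of the 45 members, against 1.07% of all genes (0.714% higher and 0.357% lower). DESeq2 also called 0, and 5 members (COL5A1, LAMA5, COL4A2, ACTA2 and ITGB4) had an unadjusted edgeR p under 0.05. It was 0.21 ± 0.16 for CD44 (adjusted p = 0.631), -0.37 ± 0.20 for TGFBI (adjusted p = 0.45) and -0.39 ± 0.15 for LAMA5 (adjusted p = 0.249). LAMA5, a laminin alpha chain, was 43.9 and 39.7 against 38 and 36.2 CPM in MYC&MED30 and 67 and 67 against 68.4 and 82.4 CPM in the MYC-labelled set. Its OE libraries thus lay below the controls in the first and above them in the second, with log2 fold changes of -0.22 ± 0.11 and 0.17 ± 0.10. A p above the threshold does not show that the responses were alike.

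The calls in MYC&MED30 depended on its libraries. Without control 1, which leaves the shallow control 2 as the lone control, assumed to vary like the other groups, none of the 8 members was called: CD44 was -0.51 (adjusted p = 0.0534), VIM -0.47 (0.103), LOXL2 -0.45 (0.142), TGFBI -0.92 (0.284), ITGB1 -0.30 (0.255), ITGB4 -0.14 (0.761), COL4A2 0.17 (0.766) and ITGA6 -0.013 (0.988). TGFB2 was then called (1.61, adjusted p = 0.0446). Without control 2 all 8 were called. CD44, LOXL2 and TGFBI were called in 7 of the 8 fits that leave out 1 library, VIM in 6, and ITGA6, ITGB1, ITGB4 and COL4A2 in 3 each; these last 4 were lost without either MYC-labelled control and without either MYC&MED30 OE library, and VIM without MYC&MED30 OE replicate 1. COL4A2 was also not called by DESeq2 (0.33, adjusted p = 0.22), nor ITGA6 (-0.40, adjusted p = 0.099). EdgeR on the 4 libraries of the MYC&MED30 line alone called all 8, and ZEB1 besides. For the MYC-labelled set, VIM, CD44 and COL5A1 were called in all 8 such fits, and LOXL2 and TGFBI in 7. Without either MYC-labelled control, 4 of the 12 members called there were called (ITGB1, SMAD3, ITGA6, ITGAV, ZEB1, SNAI1 and FN1 were lost both times), and without OE replicate 2, 8 were. DESeq2 called 8 of the 12 (not FN1, ITGA6, SNAI1 and ZEB1), and edgeR on the 4 libraries of the line alone 9 (not FN1, SNAI1 and ZEB1). In the MED30-labelled set, 4 of the 13 members were called without control 1 and 5 without control 2, CD44, VIM, COL5A1 and ITGA5 in both cases, and 27 members, the 13 included, without OE replicate 1.

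**Figure D3:**
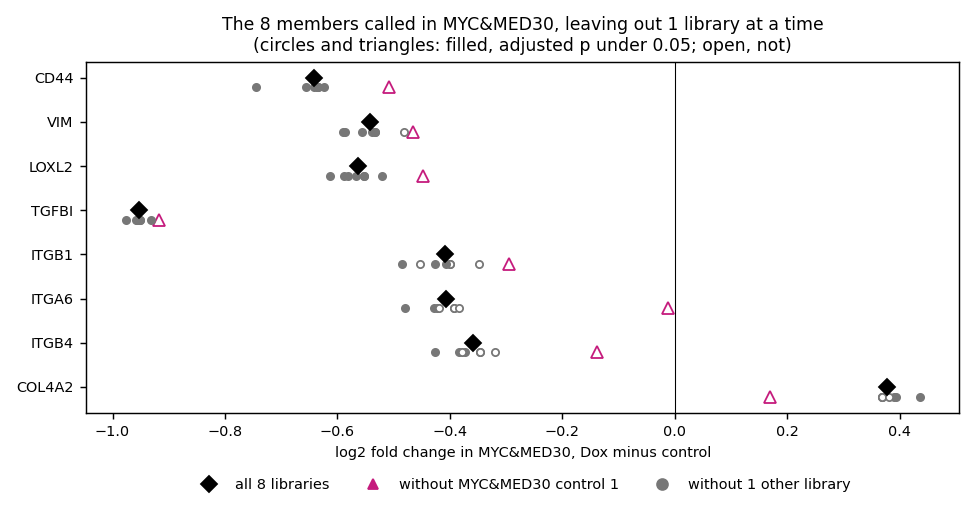
Log2 fold change in MYC&MED30 of the 8 members called there, with all 8 libraries (diamond), without MYC&MED30 control 1 (triangle) and without each other library (circles); filled circles and triangles were called and open ones were not. CD44, VIM, LOXL2, TGFBI, ITGB1 and ITGB4 stay left of 0, ITGA6 moves next to 0 without control 1, and no triangle is filled.

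For 5 members the raw tables held no level. ITGA5, the alpha subunit of a fibronectin receptor, MYL9, a myosin light chain, TIMP1 and TIMP3, inhibitors of matrix metalloproteinases, and MMP1, a collagenase, were at 0 counts in all 8 raw tables. They are the 5 members whose whole span lies opposite another RefSeq gene (GPR84-AS1, DLGAP4-AS1, SYN1, SYN3 and WTAPP1, in this order). Of 666 genes that lie wholly inside another gene and have a mean control value of at least 50 in the MED30-labelled tables, 74.2% were at 0 in all raw tables, against 0.691% of 10560 other genes. The cause of the zeros was not tested. In the MED30-labelled tables, ITGA5 was 23.3 and 22.4 against 36.4 and 32.9 (0.60 ± 0.10, limma adjusted p = 0.00537), MYL9 10.4 and 10.01 against 16 and 15.9 (0.63 ± 0.13, 0.0107) and TIMP1 19.4 and 17.9 against 27.4 and 24.4 (0.47 ± 0.11, 0.0243). All 3 rose without overlap, while TIMP3 had deposited values of 1 to 4 and MMP1 of 0. High ratios of the control level in the MYC-labelled tables to that in the MED30-labelled ones were found, besides CDH1, for LAMA3 (16), LAMB3 (3.61), LTBP1 (3.53) and COL12A1 (3.23), and a low one (0.33) for TAGLN, which has 70.4% of its span opposite other genes.

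**Figure D4:**
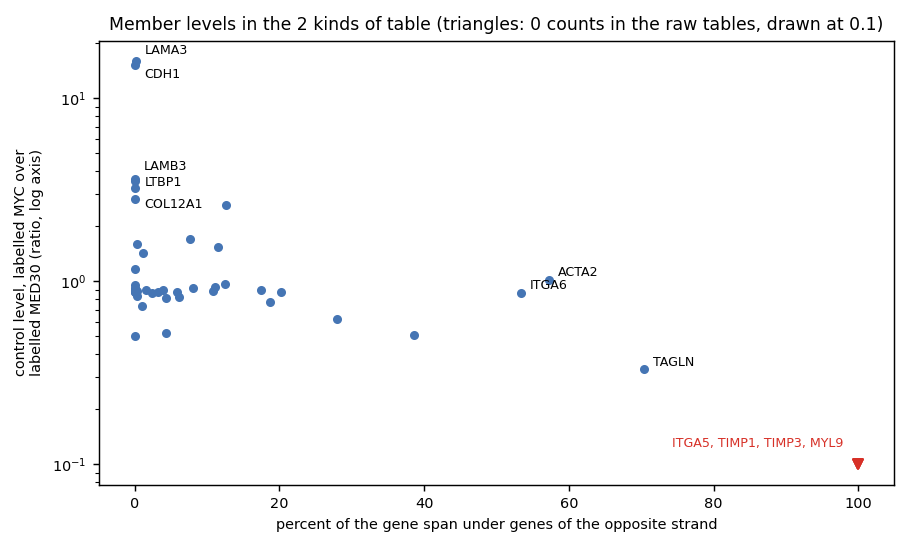
Ratio of the control level in the MYC-labelled tables to that in the MED30-labelled tables (log axis) against the percent of each member's span that lies under genes of the opposite strand; triangles are members at 0 in the raw tables, drawn at the lower edge. The triangles (ITGA5, TIMP1, TIMP3 and MYL9) sit at full overlap, LAMA3 (16) and CDH1 (15.1) lie highest, and TAGLN (0.33) lowest of the rest.

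Depth limited the low members. In MYC&MED30 control 2, 3 counts amount to 2.39 per 1e6 reads before TMM scaling and to 2.21 CPM after it, so that a 0 there allows a level up to this. In the other raw libraries 3 counts are 0.1 to 0.146 per 1e6 reads before that scaling. These limits cover counting error only.

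Other genes of the same pathways came from 6 lists that exclude the members. In the TGF-beta and BMP pathway, 1 rose and 3 fell of 30 tested in MYC&MED30, 2 and 5 of 30 in the MYC-labelled and 3 and 6 of 29 in the MED30-labelled set. These were 13.3%, 23.3% and 31% of the genes tested, against 6.74%, 13% and 16% of all genes. PMEPA1, a TGF-beta-induced inhibitor that binds SMAD2 and SMAD3, fell from 16.8 and 14 to 7.82 and 6.59 CPM in MYC&MED30 (-1.20 ± 0.14, edgeR adjusted p = 9.5e-07), from 108 and 110.3 to 43.8 and 47.9 CPM in the MYC-labelled (-1.25 ± 0.10) and from 121 and 122 to 49 and 56.2 in the MED30-labelled set (-1.21 ± 0.083). TGFBR3, the coreceptor betaglycan, fell by 0.56 ± 0.11, 0.66 ± 0.10 and 0.63 ± 0.06 on the log2 scale, and SMURF2, a ubiquitin ligase for SMADs and receptors, by 0.42 ± 0.10, 0.59 ± 0.10 and 0.54 ± 0.057.

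Of other TGF-beta target genes, 3 were called higher and 2 lower of 17 in MYC&MED30, 2 and 4 of 17 in the MYC-labelled and 1 and 2 of 15 in the MED30-labelled set, which is 29.4%, 35.3% and 20% of those tested, against 6.74%, 13% and 16% of all genes. CCN1, a matricellular protein, fell from 247 and 237 to 176 and 173 CPM in MYC&MED30 (-0.48 ± 0.10, edgeR adjusted p = 0.00143). It was not called in the other sets (-0.016 ± 0.09 and 0.039 ± 0.059). ID2, a helix-loop-helix inhibitor, was called higher in MYC&MED30 (0.66 ± 0.19, adjusted p = 0.0345) although its groups overlapped, at 4.94 and 12.5 against 7.82 and 9.49 CPM, and their means, 8.72 and 8.65 CPM, did not differ in that direction. Without control 1 its change was -0.50 (adjusted p = 0.611), and DESeq2 did not call it (0.16, adjusted p = 0.937). In the MYC-labelled set CDKN1A, a cyclin-dependent kinase inhibitor, rose from 30.8 and 28.1 to 52 and 58.7 CPM (0.91 ± 0.11, adjusted p = 7.34e-07), ANGPTL4 rose (0.55 ± 0.11) and BHLHE40 fell (-0.38 ± 0.089). CDKN1A (0.95 ± 0.10) and BHLHE40 (-0.34 ± 0.058) were also called in the MED30-labelled set, and neither in MYC&MED30. ANGPTL4 carried no value in the MED30-labelled set and was not called in MYC&MED30 (-0.13 ± 0.16, edgeR adjusted p = 0.72).

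Of other matrix genes, 5 rose and 2 fell of 49 in MYC&MED30, 11 and 6 of 49 in the MYC-labelled and 10 and 5 of 37 in the MED30-labelled set, which is 14.3%, 34.7% and 40.5% of those tested, against 6.74%, 13% and 16% of all genes. HSPG2, the basement membrane proteoglycan perlecan, rose by 0.50 ± 0.10, 0.29 ± 0.087 and 0.32 ± 0.064, and LAMA2, a laminin chain, fell by 0.44 ± 0.10, 0.48 ± 0.10 and 0.45 ± 0.071. COL13A1, a transmembrane collagen, fell from 90.9 and 85.3 to 41 and 38.7 CPM in MYC&MED30 (-1.17 ± 0.11, edgeR adjusted p = 6.06e-09) and by 0.77 ± 0.09 on the log2 scale in the MYC-labelled set. P4HA2, a collagen prolyl hydroxylase, rose (0.73 ± 0.14) and COL6A3 fell (-0.51 ± 0.10) in the latter. Both were also called in the MED30-labelled set (0.79 ± 0.14 and -0.47 ± 0.074), and neither in MYC&MED30. COL13A1 carried no value in the MED30-labelled set.

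Of 26 other actin-contractile genes tested in each set, 1 rose and 6 fell in MYC&MED30, 1 and 6 in the MYC-labelled and 0 and 6 in the MED30-labelled set, which is 26.9%, 26.9% and 23.1% of those tested, against 6.74%, 13% and 16% of all genes. The genes called lower were 3.09%, 7.71% and 8.63% of all genes. The cytoplasmic actin ACTG1 fell by 0.65 ± 0.10, 0.66 ± 0.093 and 0.63 ± 0.069. MYL12A, a myosin light chain, and FLNA, filamin A, fell in MYC&MED30 (-0.50 ± 0.10 and -0.53 ± 0.11). The actin cross-linker ACTN4 and the tropomyosin TPM4 fell in the MYC-labelled (-0.67 ± 0.093 and -0.42 ± 0.094) and MED30-labelled sets (-0.61 ± 0.059 and -0.37 ± 0.057). In MYC&MED30 ACTN4 and TPM4 were not called (-0.23 ± 0.10 and -0.22 ± 0.099).

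Of other epithelial junction and EMT genes, 0 rose and 2 fell of 28 in MYC&MED30, 2 and 3 of 28 in the MYC-labelled and 2 and 3 of 23 in the MED30-labelled set, which is 7.14%, 17.9% and 21.7% of those tested, against 6.74%, 13% and 16% of all genes. CLDN1, a tight junction claudin, fell by 0.76 ± 0.15, 0.69 ± 0.15 and 0.67 ± 0.14, and NT5E, the surface enzyme CD73, by 0.54 ± 0.10, 0.49 ± 0.093 and 0.45 ± 0.06. The junction protein JUP rose in the MYC-labelled (0.70 ± 0.16) and MED30-labelled sets (0.77 ± 0.17). In MYC&MED30 JUP was not called (0.37 ± 0.19), nor was PKP3 (0.59 ± 0.24, edgeR adjusted p = 0.147). Of 17 other integrins, edgeR called 0 in MYC&MED30, against 6.74% of all genes. In that set 3 had an unadjusted p under 0.05 and DESeq2 called 0. The smallest p there were those of ITGB6 (-0.45 ± 0.14), ITGA10 (-0.42 ± 0.14) and ITGB7 (0.28 ± 0.13). ITGB7 was the 1 other integrin that edgeR called in the MYC-labelled set (-0.37 ± 0.12, adjusted p = 0.0322), which is 5.88% against 13% of all genes. In this set 5 had an unadjusted p under 0.05 and DESeq2 called 0. There ITGB8 was at -0.47 ± 0.18 (adjusted p = 0.077). In the MED30-labelled set 1 of 12 (ITGB3) rose, which is 8.33% against 16% of all genes. ITGB7 was not called there (-0.025 ± 0.082, limma adjusted p = 0.864).

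**Figure D5:**
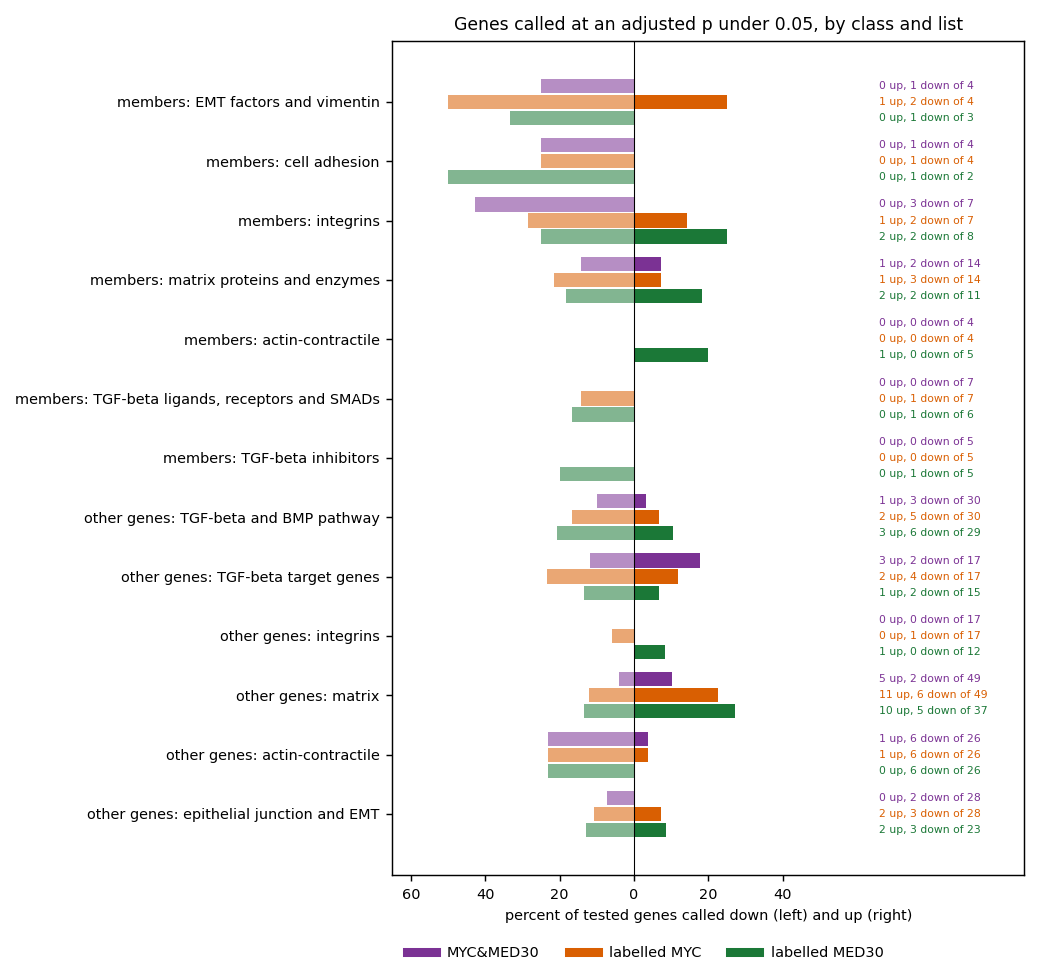
Percent of the tested genes of each class and list called lower (left) and higher (right) with Dox in the 3 sets of libraries, with the counts at the right. The other actin-contractile genes have 6 calls lower of 26 in each set, where 3.09%, 7.71% and 8.63% of all genes were lower, and the other matrix genes have more calls higher than lower in each.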

How the data were processed

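PRO-seq libraries of Mia PaCa-2 lines with Dox-inducible MED30, MYC-3xHA or both were analysed (12 libraries, 2 per group), grouped by their labels. Per the submitters' processing notes and the methods, the authors trimmed reads (Trim Galore), mapped them to hg38 (Bowtie2), counted sense reads over gene bodies (featureCounts 2.0.3) and tested with DESeq2 2.11.40.8. The methods give 1 day of Dox, and the results text a longer time. For the MYC and MYC&MED30 labels, 8 deposited tables hold raw counts. For the MED30 label, 4 deposited tables hold a score: values scaled to nearly equal totals and rounded, of unknown depth, whose 11 rows without a gene name (0.0777% to 0.0823% of the totals) were left out. Spike-in scaling was not applied.

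R 4.3.3 was used. Raw counts of all 4 groups went into a single edgeR 4.0.16 quasi-likelihood fit (TMM, filterByExpr). MED30-labelled values, TMM-scaled and logged after adding a pseudocount of 1, went into limma 3.58.1 with a trend, for genes of at least 10 in at least 2 libraries; the pseudocount understates changes of low genes. The limma errors are those of the fit. For edgeR, the error given is the absolute log2 fold change over the square root of the F statistic of its test. It rests on a spread shared by all 4 groups of the fit. The members, the lists and the rule for named genes were chosen with earlier results of these data known. The rule gives in full the members called in MYC&MED30, in the difference, or in both other sets with an absolute log2 fold change of at least 0.5. It adds the 2 of each class with the smallest p in the MYC-labelled set, where these are not already among the former. Of each other list it names the 3 smallest p in MYC&MED30 and in the MYC-labelled set. Members given in full beyond this rule were chosen after their values were seen, and 1 gene that the rule names is not reported here. The fits were tested on simulated data drawn with the same spread for every group. The replicates of the deposited libraries varied unequally between groups, so these simulations do not bear on the calls. Alternatives were other scalings and filters, DESeq2 1.42.0, a replicate block and leaving out libraries. Coordinates, overlaps and promoters are from RefSeq (GRCh38.p14).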

Additional observations from a re-analysis of the deposited data

Results flagged for a closer look

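Among the genes read here, 4 that are not members differed in their Dox response between lines by the edgeR test of the difference itself, given as the log2 fold change in MYC&MED30 minus the MYC-labelled one. MYC, an induced gene, differed by 1.72 (adjusted p = 3.68e-09). KLF10, a TGF-beta-inducible repressor, differed by 0.78 (adjusted p = 0.00859), rising from 33.6 and 33.8 to 42.2 and 45.4 CPM in MYC&MED30 and falling from 46 and 42.8 to 35.6 and 32.1 CPM in the MYC-labelled set. MYL12A differed by -0.61 (adjusted p = 0.0238), with -0.50 ± 0.10 and 0.11 ± 0.10 in the 2 sets. COL7A1, the anchoring fibril collagen, differed by 1.07 (adjusted p = 0.0486), with 0.87 ± 0.23 and -0.20 ± 0.15. DESeq2 did not call this difference of COL7A1, and MYC&MED30 control 2 held 5 counts of it. Without MYC&MED30 control 1, KLF10 (adjusted p = 0.138), MYL12A (0.151) and COL7A1 (0.626) did not pass. Without MYC-labelled control 1 they did not pass either (0.082, 0.3 and 0.185), nor without MYC&MED30 OE replicate 2 (0.0603, 0.191 and 0.141).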

How the results depend on the processing

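Of 368 alternative values of called changes of the named members, 302 kept direction and call, 66 kept direction and lost the call, and 0 reversed. MYC&MED30 control 2, with 1257499 counts, limits every low gene of its line. Members called higher in MYC&MED30 (1) numbered 0 with DESeq2 size factors, 0 by DESeq2, 2 with library size alone and 0 to 3 leaving out 1 library, and those called lower (7) 0 to 8, the 0 being without control 1. In the MYC-labelled set, 3 higher became 6 with library size alone, which moved the median of all genes to 0.16, and 1 to 5 leaving out 1 library, and 9 lower became 3 to 11. In the MED30-labelled set, 5 higher and 8 lower became 1 and 3 without a filter, and 2 to 10 and 2 to 17 leaving out 1 library. The difference (0 and 0) gave 0 to 2 higher and 0 to 1 lower leaving out 1 library, all without an MYC-labelled OE library. Where the setting itself does not show it, the cause was not tested.

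The replicate numbers were not found to pair the libraries: the replicate ratios of controls and OE libraries correlated at -0.285, -0.117 and -0.264 in the MYC-labelled, MYC&MED30 and MED30-labelled sets. With the replicate block, members called higher and lower numbered 0 and 6 in MYC&MED30 (without COL4A2 and ITGA6), 3 and 9 in the MYC-labelled set, 6 and 9 in the MED30-labelled set (with SNAI1 and ZEB1 gained), and 0 and 0 in the difference. With the numbers crossed in the block, chosen after seeing the data, they were 0 and 5, 2 and 9, 9 and 11, and 0 and 0.

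Some values that were not called changed sign. ITGB4 was 0.084 in the MYC-labelled set with library size alone, and in the MED30-labelled set 0.013 with a minimum of 50, 0.10 with library size alone and 0.013 with the upper quartile. COL4A2 was 0.024, 0.13 and 0.0042 in the MYC-labelled set with the upper quartile, library size alone and the 4 libraries of the line, and -0.0069 in the MED30-labelled set without a filter. Leaving out 1 library gave, in MYC&MED30, -0.082 to 0.50 for COL5A1, -0.51 to 0.022 for CDH1, -0.0057 to 0.87 for ACTA2, -0.011 to 0.82 for CNN1 and -0.41 to 0.24 for SMAD6. It gave -0.12 to 0.0020 for ITGB4, -0.18 to 0.15 for COL4A2 and -0.055 to 0.54 for CDH1 in the MYC-labelled set, and -0.11 to 0.10 for ITGB4, -0.11 to 0.12 for COL4A2 and -0.020 to 0.41 for CNN1 in the MED30-labelled set.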
